A study of Homo sapiens with 9 samples.

Results

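The E2F and RB family genes were described as 10 named members, chosen by symbol, among the 26475 gene symbols of the expression table. They were the activator E2F genes E2F1, E2F2 and E2F3, the repressor E2F genes E2F4 and E2F5, the atypical repressor E2F8, the pocket protein genes RB1, RBL1 and RBL2, and the DP partner gene TFDP1. All 10 passed the filter on low counts that left 16417 genes for testing. The cells were A375, a human melanoma cell line carrying an activating BRAF mutation. They received DMSO, the solvent control, or TP-472, a compound that inhibits the bromodomain proteins BRD7 and BRD9, at 5 µM or 10 µM for 24 h. Each group held 3 libraries, described as biological replicates, and all of them came from this 1 cell line.

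E2F proteins are transcription factors that control the genes a cell needs to copy its DNA and divide. Most of them bind DNA as a pair with a DP protein such as the product of TFDP1. In a resting cell the pocket proteins RB1, RBL1 (p107) and RBL2 (p130) hold E2F proteins and keep their target genes off. Cyclin-dependent kinases phosphorylate the pocket proteins when a cell commits to division, the activator E2Fs are released and the targets are transcribed. E2F4 and E2F5 bind mainly together with RBL1 and RBL2, also within the DREAM complex that silences cell cycle genes. RB1 is a tumor suppressor, and in melanoma the kinases and kinase inhibitors that act on it are often altered.

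The libraries held 42483091 to 51298130 counts each. Levels are given as CPM, read counts scaled to library size, after TMM scaling of library sizes, and levels of different genes are compared only as TPM, which also divides by the merged exon length. SOX10, a transcription factor of the melanocyte lineage, stood at 417 CPM in DMSO and MITF at 31.9 CPM. The pigment genes were low or undetected, with PMEL at 1.48 CPM, MLANA at 0.173 CPM and TYR at 0 in every library, while AXL, a gene of dedifferentiated melanoma, stood at 523 CPM. Of 6 genes of that state, 5 were called lower at 10 µM, beside 18.0% of all genes tested. Without replicate 1 of 10 µM all 6 were, beside 25.8%. The median log2 fold change of the 6 was -0.78 with all 9 libraries, and SOX2 (-1.83), SOX9 (-1.20) and NGFR (-0.81) were among the called genes. Of 6 melanocyte lineage genes tested, 0 were called at 10 µM, and 1 was called lower without that library. The part of these genes in the results was not tested. Among the 12 markers of keratinocytes, fibroblasts, immune and endothelial cells, only KRT14 (6.92 CPM in DMSO) and CD68 (55.8 CPM) had a DMSO mean above 5 CPM, and CD3E was at 0 in every library. Of the 9 markers tested at 10 µM, CD68 rose to 105 CPM and PDGFRA fell from 3.31 to 0.977 CPM, and their part in the results was not tested.

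Replicate 1 at 10 µM stood apart from replicates 2 and 3 of its group. Its log2 CPM minus the mean of the other two was -0.997 for RB1, -0.89 for RBL1, -0.61 for E2F2, -0.54 for RBL2 and -0.42 for E2F3, whereas it was 0.47 for E2F1 and 0.22 for E2F4. A trend with longest-transcript length and GC content held 10.3% of the variance of this library's deviation from the mean of its own group. That share was 4.48% and 5.16% in the other 10 µM libraries, and at most 0.459% in the DMSO and 5 µM libraries. The group mean includes each library, so a trend in replicate 1 also enters the deviations of replicates 2 and 3. Whether replicates 2 and 3 have such a trend of their own was not tested. Results are given with all 9 libraries, and the calls of the members and of each gene list are also given without that library. Both doses were compared with the same 3 DMSO libraries.

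In DMSO the DP partner and the main repressor E2F were the most abundant members. TFDP1 stood at 302 ± 5.69 TPM (mean ± SD, n = 3) and E2F4 at 160 ± 1.47 TPM. E2F1 (73.9 ± 1.82 TPM) and RB1 (71.6 ± 1.35 TPM) came next, and their libraries overlapped. RBL2 followed at 54.4 ± 2.44 TPM, E2F3 at 34.8 ± 1.96 TPM, RBL1 at 24.0 ± 2.51 TPM and E2F5 at 14.8 ± 0.869 TPM. E2F2 (6.85 ± 0.696 TPM) and E2F8 (6.81 ± 0.234 TPM) were the lowest members and overlapped. Of the remaining family genes, E2F6 (40.2 TPM) and E2F7 (36.7 TPM) lay between RBL2 and E2F3, the libraries of E2F7 and E2F3 overlapped, and TFDP2 (13.0 TPM) lay just under E2F5.

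The promoters of 5 members hold an E2F word, an exact match to TTTCCCGC, TTTCGCGC, TTTGCCGC or TTTGGCGC on either strand, and are shown because E2F proteins are known to act on genes of their own family. Each window runs from 250 bases before to 50 bases after the RefSeq transcription start (GRCh38.p14) and is written 5′ to 3′ on the gene's strand, with the matched words in capitals. The windows are chr20:33686336-33686635 (minus strand) for E2F1, chr1:23531184-23531483 (minus) for E2F2, chr6:20401629-20401928 (plus) for E2F3, chr20:37095948-37096247 (minus) for RBL1 and chr13:113584503-113584802 (plus) for TFDP1.
E2F1: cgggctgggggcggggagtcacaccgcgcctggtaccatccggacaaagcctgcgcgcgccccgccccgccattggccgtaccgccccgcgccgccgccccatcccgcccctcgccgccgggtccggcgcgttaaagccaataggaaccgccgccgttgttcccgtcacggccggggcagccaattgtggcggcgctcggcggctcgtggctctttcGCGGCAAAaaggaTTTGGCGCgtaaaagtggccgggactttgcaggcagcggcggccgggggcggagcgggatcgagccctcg
E2F2: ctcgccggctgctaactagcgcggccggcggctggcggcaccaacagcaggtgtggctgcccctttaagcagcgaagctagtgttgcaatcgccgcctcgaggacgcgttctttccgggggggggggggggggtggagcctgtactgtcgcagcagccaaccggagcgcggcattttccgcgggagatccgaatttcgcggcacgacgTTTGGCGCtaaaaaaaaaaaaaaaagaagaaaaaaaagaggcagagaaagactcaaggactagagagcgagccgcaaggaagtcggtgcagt
E2F3: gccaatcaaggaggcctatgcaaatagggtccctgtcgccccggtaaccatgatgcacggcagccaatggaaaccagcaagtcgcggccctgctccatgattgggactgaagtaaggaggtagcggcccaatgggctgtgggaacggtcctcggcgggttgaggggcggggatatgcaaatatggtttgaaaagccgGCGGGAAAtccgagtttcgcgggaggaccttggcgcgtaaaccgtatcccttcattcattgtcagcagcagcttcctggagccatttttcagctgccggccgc
RBL1: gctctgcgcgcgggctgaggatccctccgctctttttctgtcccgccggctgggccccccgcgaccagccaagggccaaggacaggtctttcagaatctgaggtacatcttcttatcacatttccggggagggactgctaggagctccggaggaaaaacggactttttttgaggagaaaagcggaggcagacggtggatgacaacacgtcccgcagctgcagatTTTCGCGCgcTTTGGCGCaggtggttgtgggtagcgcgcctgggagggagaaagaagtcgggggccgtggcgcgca
TFDP1: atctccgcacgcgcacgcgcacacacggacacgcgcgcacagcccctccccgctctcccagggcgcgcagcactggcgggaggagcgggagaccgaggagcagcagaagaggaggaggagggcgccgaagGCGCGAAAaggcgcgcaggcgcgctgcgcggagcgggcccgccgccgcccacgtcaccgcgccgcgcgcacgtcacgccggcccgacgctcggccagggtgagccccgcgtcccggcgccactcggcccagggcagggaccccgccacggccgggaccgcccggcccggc

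The E2F1 promoter carried 2 words, TTTGCCGC on the minus strand at -33 to -26 and TTTGGCGC on the plus strand at -20 to -13, counted from the start. For the words, plus is the strand of the gene as printed and minus its complement, not the strands of the chromosome. The RBL1 promoter also carried 2, TTTCGCGC at -26 to -19 and TTTGGCGC at -16 to -9, both on the plus strand. E2F2 held TTTGGCGC at -42 to -35 (plus), E2F3 held TTTCCCGC at -53 to -46 (minus) and TFDP1 held TTTCGCGC at -120 to -113 (minus). No word lay in the windows of E2F4 and RBL2, and the RBL2 entry starts 494 bases downstream of the gene's annotated start. The RB1 entry lies 172724 bases downstream of the annotated start of the gene, so it does not cover that start. E2F5 and E2F8 had no entry. An E2F word lay in 3.31% of all 35116 promoter windows and in 6.14% of the 11784 tested genes that had a window. The share was 7.89% among genes called lower at 10 µM, 5.62% among genes called higher and 5.77% among genes not called. A match is a description of these letters and does not show binding.

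A gene was called at an adjusted p under 0.05 (quasi-likelihood F test of edgeR, Benjamini-Hochberg over all genes tested), with no minimum fold. At 10 µM, 7 of the 10 members were called lower and 0 higher, beside 18.0% of all genes tested called lower and 16.4% called higher. The 7 were E2F1, E2F2, E2F5, E2F8, RBL1, RBL2 and TFDP1, and 5 of them, all but E2F5 and TFDP1, were lower by 1.5 times or more. E2F3, E2F4 and RB1 were not called. At 5 µM, 1 member (E2F8) was called lower and 0 higher, beside 5.81% and 4.40% of all genes. Between the doses, 2 members (E2F2 and TFDP1) were called lower at 10 µM than at 5 µM and 0 higher, beside 5.53% and 2.87%. The median log2 fold change of the members was -0.29 at 5 µM and -0.55 at 10 µM, where the medians over all genes tested were 0.01 and 0.01.

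Without replicate 1 of 10 µM the same 7 members were called lower at 10 µM, where 25.8% of 16745 genes were called lower and 23.0% higher. Of these, 4 were lower by 1.5 times or more, since RBL2 stood at 0.689 of its DMSO level. At 5 µM the count rose from 1 to 6 (E2F1, E2F2, E2F5, E2F8, RBL1 and RBL2), beside 17.6% of all genes lower and 16.5% higher. Between the doses it rose from 2 to 5 (E2F1, E2F2, RBL1, RBL2 and TFDP1), beside 15.4% lower and 8.80% higher. The 5 µM changes themselves hardly moved with that library left out (E2F1 -0.45 in both fits), but their standard errors were smaller (0.07 in place of 0.13 for E2F1). The libraries are whole cultures, so fewer cells in a phase of the cell cycle and less RNA of a gene per cell cannot be told apart.

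**Figure D1:**
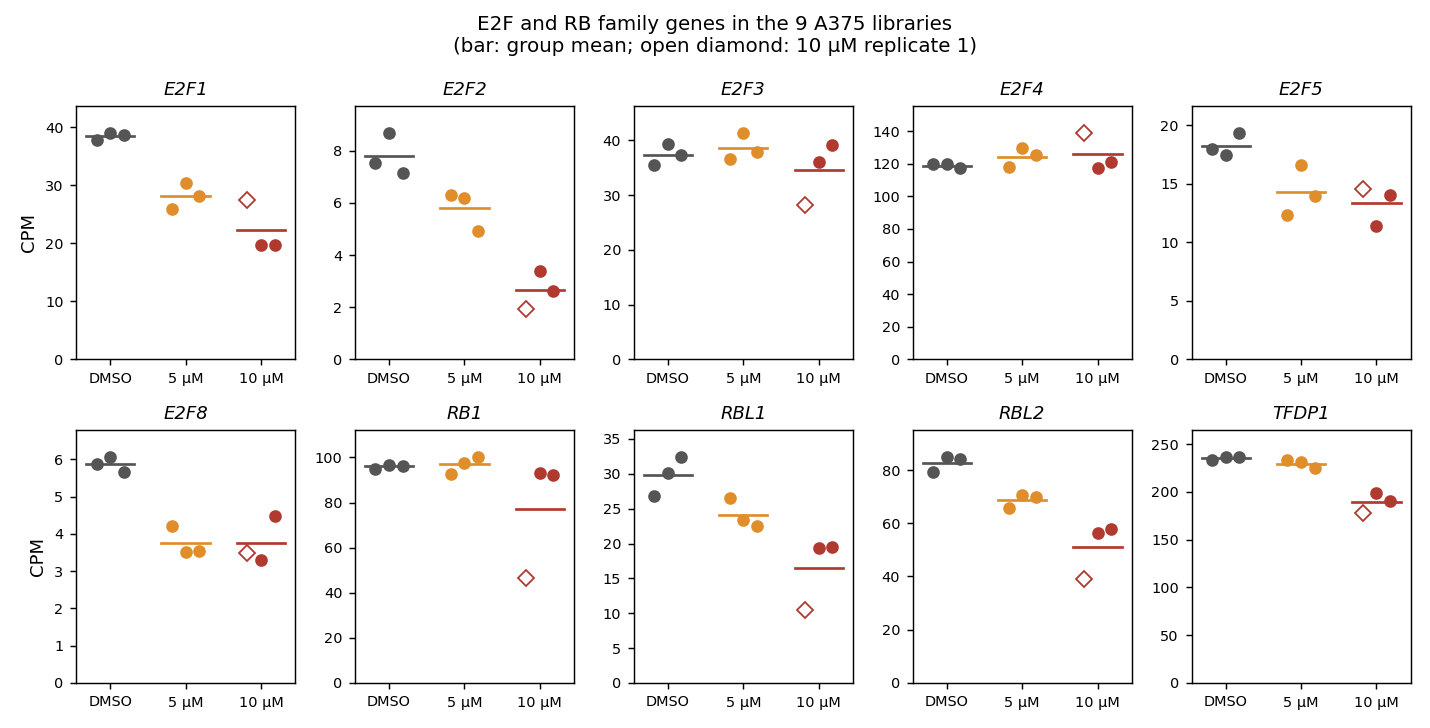
CPM of the 10 members in each of the 9 libraries, 1 panel per gene with its own linear axis from 0, bars at the group means, and an open diamond for replicate 1 of 10 µM. The open diamond lies apart from the other 10 µM libraries most widely for RB1 (46.4 CPM against 93.0 and 92.3). Those other RB1 values lie just under the DMSO libraries (95.1 to 96.8 CPM).

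E2F1, the activator best known for driving entry into S phase, lies at chr20:33675683-33686404 (minus strand; gene coordinates here are GENCODE 29 on GRCh38). It stood at 37.8, 39.0 and 38.7 CPM in the DMSO libraries, at 26.0, 30.3 and 28.2 CPM at 5 µM and at 27.5, 19.7 and 19.8 CPM at 10 µM. Every treated library was lower than every DMSO library, and the 5 µM and 10 µM libraries overlapped through replicate 1 of 10 µM. At 10 µM E2F1 fell by 0.79 on the log2 scale (standard error 0.13, edgeR adjusted p = 0.0013), and by 0.96 without replicate 1 (adjusted p = 4.71e-08). At 5 µM its log2 fold change was -0.45 (standard error 0.13), which missed the threshold with all 9 libraries (edgeR adjusted p = 0.0540) and passed it without replicate 1 of 10 µM (adjusted p = 7.53e-05). The step between the doses was -0.33 (edgeR adjusted p = 0.143), and -0.51 without that library (adjusted p = 0.000149).

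E2F2, a second activator with a role in cell division that overlaps that of E2F1, had the largest fall of the 10 members at 10 µM. Its gene lies at chr1:23506430-23531220 (minus strand). The DMSO libraries held 7.53, 8.66 and 7.16 CPM, the 5 µM libraries 6.31, 6.20 and 4.93 CPM and the 10 µM libraries 1.94, 3.40 and 2.61 CPM. The 3 groups did not overlap and stepped down with dose. At 10 µM E2F2 fell by 1.55 on the log2 scale (standard error 0.21, edgeR adjusted p = 0.00043), to 0.341 of its DMSO level, and by 1.37 without replicate 1. At 5 µM the log2 fold change was -0.42 (edgeR adjusted p = 0.246, and 0.0440 without replicate 1 of 10 µM). E2F2 fell by a further 1.13 from 5 µM to 10 µM (standard error 0.21, edgeR adjusted p = 0.0114). That last call ended when replicate 1 or replicate 2 of 5 µM was left out (adjusted p = 0.0515 and 0.0529).

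E2F3, the third activator, was not called at either dose. Its gene lies at chr6:20401906-20493715 (plus strand). It stood at 35.6, 39.3 and 37.3 CPM in DMSO, at 36.6, 41.3 and 37.8 CPM at 5 µM and at 28.2, 36.1 and 39.2 CPM at 10 µM. The groups overlapped at both doses, and the single low value was replicate 1 of 10 µM. The log2 fold change at 10 µM was -0.11 (95% interval -0.38 to 0.15, edgeR adjusted p = 0.500), and 0.01 without that library (interval -0.14 to 0.16). At 5 µM it was 0.05 (95% interval -0.22 to 0.31).

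E2F4, the most abundant repressor E2F, is found at its targets mainly in resting and early G1 cells. Its gene lies at chr16:67192169-67198918 (plus strand). The DMSO libraries held 120, 120 and 117 CPM, the 5 µM libraries 118, 130 and 125 CPM and the 10 µM libraries 139, 117 and 121 CPM. The groups overlapped at both doses. The log2 fold change was 0.06 at 5 µM (95% interval -0.11 to 0.24) and 0.08 at 10 µM (95% interval -0.10 to 0.26, edgeR adjusted p = 0.477). Without replicate 1 of 10 µM the value at 10 µM was 0.00 (interval -0.10 to 0.10), and after removal of a trend with exon length and GC content it was 0.34 (adjusted p = 0.0525).

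E2F5, a repressor that binds with the pocket protein RBL2, lies at chr8:85177225-85217158 (plus strand). It stood at 17.9, 17.5 and 19.3 CPM in DMSO, at 12.3, 16.6 and 14.0 CPM at 5 µM and at 14.5, 11.4 and 14.0 CPM at 10 µM. Every treated library lay under every DMSO library, and the doses overlapped. At 10 µM E2F5 fell by 0.45 (standard error 0.13, edgeR adjusted p = 0.0253), and at 5 µM the log2 fold change was -0.35 (adjusted p = 0.137). The 10 µM call was among the least stable of the 7. It ended when any 1 DMSO library was left out (adjusted p = 0.0559 to 0.0919), when replicate 2 of 10 µM was left out (0.0693), and when a trend with exon length and GC content was removed (log2 fold change -0.09, adjusted p = 0.769). Exons of genes on the opposite strand, C8orf59 and AC011773.1, cover 18.6% of its exon length, and the libraries were made strand-specific with dUTP, but no source used here states whether the counting used strand. C8orf59 stood at 34.1, 36.5 and 33.0 CPM in DMSO and at 56.9, 32.7 and 36.3 CPM at 10 µM, where only replicate 1 lay above the DMSO range, and its part in the E2F5 values was not tested.

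E2F8 is an atypical E2F that binds DNA without a DP partner and represses E2F targets, E2F1 among them. Its gene lies at chr11:19224063-19241620 (minus strand). The DMSO libraries held 5.88, 6.07 and 5.65 CPM, the 5 µM libraries 4.21, 3.51 and 3.53 CPM and the 10 µM libraries 3.49, 3.29 and 4.48 CPM. The treated libraries lay under all DMSO libraries, and the 5 µM and 10 µM libraries overlapped. E2F8 fell by 0.65 at 5 µM (standard error 0.17, edgeR adjusted p = 0.0385) and by 0.64 at 10 µM (standard error 0.17, adjusted p = 0.0148). Between the doses the log2 fold change was 0.00 (95% interval -0.37 to 0.38). The 5 µM call ended when any 1 of the 6 libraries compared was left out (adjusted p = 0.0629 to 0.155), with a replicate block (0.0749), without a filter (0.0589) and after removal of the length and GC trend (log2 fold change -0.50, adjusted p = 0.166). It held without replicate 1 of 10 µM (0.00629) and in 11 of 20 settings in all. At 10 µM the call ended without DMSO replicate 1 or 2 (0.0523 and 0.0605) and after removal of the length and GC trend (log2 fold change -0.56, adjusted p = 0.0515).

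RB1, the retinoblastoma tumor suppressor, lies at chr13:48303726-48599436 (plus strand). It stood at 95.1, 96.8 and 96.4 CPM in DMSO, at 92.8, 97.7 and 100.3 CPM at 5 µM and at 46.4, 93.0 and 92.3 CPM at 10 µM. Replicate 1 of 10 µM stood alone at the low end, and the other 8 libraries lay between 92.3 and 100.3 CPM. The log2 fold change at 10 µM was -0.31 (95% interval -0.79 to 0.16, edgeR adjusted p = 0.286) and moved to -0.05 without replicate 1 (interval -0.15 to 0.05, adjusted p = 0.365). At 5 µM it was 0.01 (95% interval -0.46 to 0.48).

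RBL1 encodes p107, a pocket protein whose own gene is switched on by E2F during the cell cycle. It lies at chr20:36996349-37095995 (minus strand). The DMSO libraries held 26.8, 30.1 and 32.4 CPM, the 5 µM libraries 26.5, 23.3 and 22.6 CPM and the 10 µM libraries 10.5, 19.4 and 19.6 CPM. The 3 groups did not overlap, although the highest 5 µM library was close to the lowest DMSO library. At 10 µM RBL1 fell by 0.85 (standard error 0.21, edgeR adjusted p = 0.00996), by 0.61 without replicate 1 (adjusted p = 5.26e-05), and by 0.54 after removal of the length and GC trend (adjusted p = 0.00766). At 5 µM the log2 fold change was -0.30 (adjusted p = 0.426, and 0.0094 without replicate 1 of 10 µM).

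RBL2 encodes p130, the pocket protein that is most abundant in resting cells and a part of the DREAM complex. It lies at chr16:53433977-53491649 (plus strand). The DMSO libraries held 79.4, 85.0 and 84.0 CPM, the 5 µM libraries 65.7, 70.6 and 69.7 CPM and the 10 µM libraries 39.2, 56.4 and 58.0 CPM. No library of one group reached the range of another. At 10 µM RBL2 fell by 0.69 (standard error 0.13, edgeR adjusted p = 0.0029), by 0.54 without replicate 1 (adjusted p = 6.84e-07), and by 0.46 after removal of the length and GC trend (adjusted p = 0.0106). At 5 µM the log2 fold change was -0.27 (adjusted p = 0.245, and 0.000377 without replicate 1 of 10 µM). AKTIP and AC007342.6, on the opposite strand, cover 18.2% of the RBL2 exon length, and AKTIP stood at 22.6 CPM in DMSO and 30.2 CPM at 10 µM. Its part in the RBL2 values was not tested.

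TFDP1, the DP partner shared by the classical E2Fs, lies at chr13:113584721-113641470 (plus strand). It stood at 233, 237 and 237 CPM in DMSO, at 233, 231 and 225 CPM at 5 µM and at 178, 199 and 191 CPM at 10 µM. The 5 µM libraries overlapped DMSO, and all 10 µM libraries lay under both. At 10 µM TFDP1 fell by 0.31 (standard error 0.07, edgeR adjusted p = 0.00464), to 0.804 of its DMSO level, and between the doses it fell by 0.28 (adjusted p = 0.0294). Removal of the length and GC trend ended both calls (log2 fold change -0.16 against DMSO, adjusted p = 0.377, and -0.14 against 5 µM, adjusted p = 0.566). The call between the doses also ended when any 1 DMSO or 5 µM library was left out (adjusted p = 0.0678 to 0.107).

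**Figure D2:**
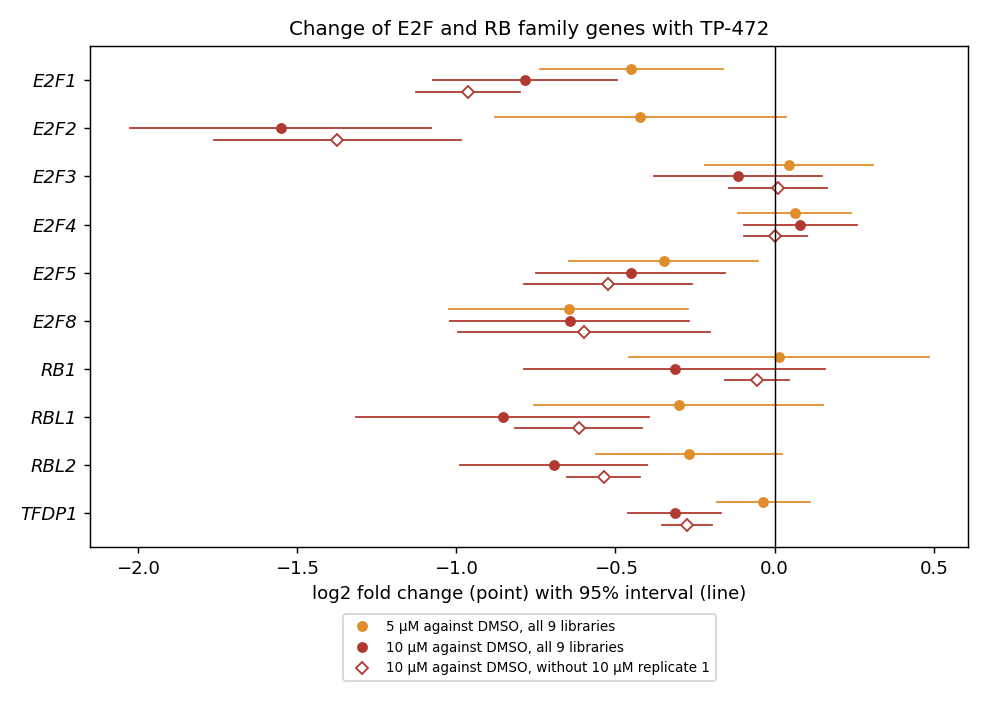
Log2 fold change of the 10 members against DMSO at both doses, with 95% intervals from edgeR. Open diamonds give 10 µM without its replicate 1. At 10 µM the points run from -1.55 for E2F2 to 0.08 for E2F4, and the intervals of E2F3, E2F4 and RB1 include 0 in both fits.

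Among the activators, E2F1 and E2F2 were called lower at 10 µM and E2F3 was not. Among the repressors, E2F5 was called lower and E2F4 was not, and neither difference between genes was tested. Summed on the TPM scale, E2F1, E2F2 and E2F3 held 116 ± 4.16 TPM in DMSO, 96.8 ± 6.83 TPM at 5 µM and 75.7 ± 5.93 TPM at 10 µM (mean ± SD, n = 3 each). E2F4, E2F5 and E2F8 together held 181 ± 1.30, 186 ± 9.92 and 179 ± 7.23 TPM. The ratio of activator to repressor E2F transcripts was 0.618, 0.654 and 0.642 in the DMSO libraries, 0.517, 0.534 and 0.510 at 5 µM and 0.400, 0.437 and 0.429 at 10 µM. The 3 groups did not overlap, and the ratio of replicate 1 of 10 µM lay beside those of its group. This ratio is a score over the members and was described without a test.

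The share of E2F4 in the summed transcripts of the 6 E2F members was 53.8 ± 0.678% in DMSO, 60.0 ± 0.748% at 5 µM and 64.5 ± 1.17% at 10 µM. That of E2F1 was 24.9 ± 0.260%, 19.5 ± 0.429% and 16.3 ± 2.05%, and that of E2F2 was 2.31 ± 0.204%, 1.85 ± 0.276% and 0.909 ± 0.309%. E2F3 held 11.7 ± 0.448%, 12.9 ± 0.206% and 12.4 ± 2.73%. These shares rest on mRNA levels and on annotated exon lengths, and a share of one gene can rise because that of another is lower.

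**Figure D3:**
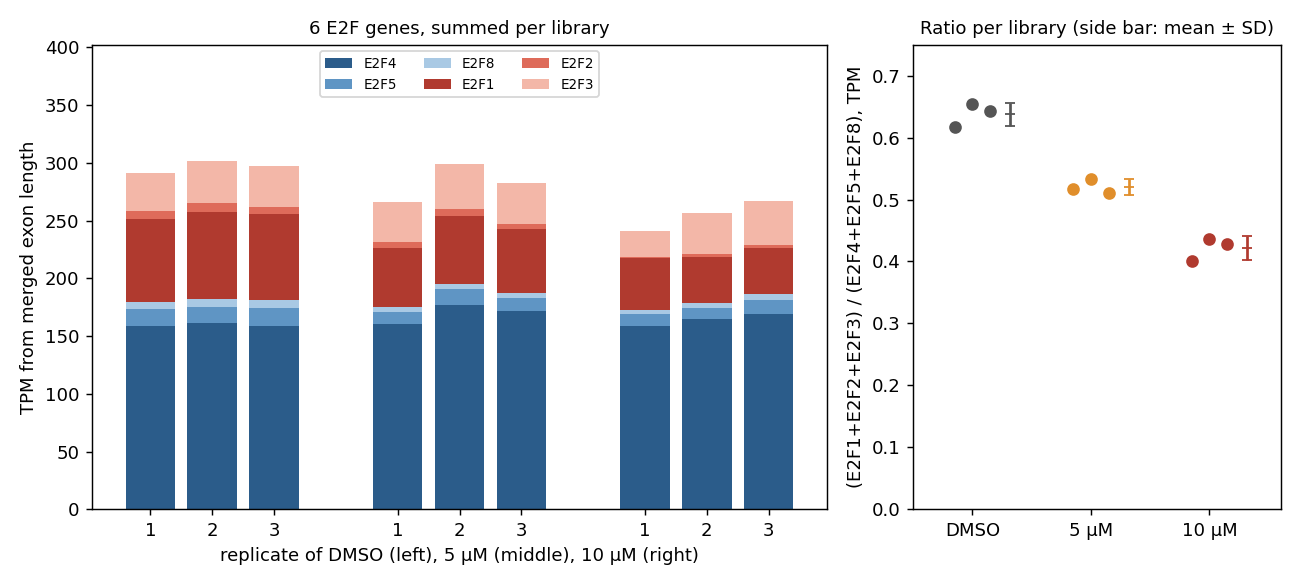
Left, TPM of the 6 E2F members stacked for each of the 9 libraries; right, the ratio of E2F1, E2F2 and E2F3 to E2F4, E2F5 and E2F8 per library, with the group mean and SD at the side. The DMSO ratios span 0.618 to 0.654, the 5 µM ratios 0.510 to 0.534 and the 10 µM ratios 0.400 to 0.437.

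The E2F and DP genes outside the 10 members did not move as a block. E2F6, a repressor that acts without pocket proteins, rose by 0.33 at 10 µM (standard error 0.09, edgeR adjusted p = 0.0198), with 33.7, 33.3 and 35.1 CPM in DMSO and 48.0, 39.1 and 40.8 CPM at 10 µM. E2F7, the atypical partner of E2F8, stood at 48.1, 49.1 and 47.4 CPM in DMSO and at 39.8, 66.9 and 74.1 CPM at 10 µM, with replicate 1 of 10 µM the lowest of all. Its log2 fold change at 10 µM was 0.32 with all 9 libraries (95% interval -0.08 to 0.73, edgeR adjusted p = 0.205), and without that library E2F7 was called higher, at 0.55 (adjusted p = 9.23e-07), as it was at 5 µM, at 0.25 (adjusted p = 0.00137). TFDP2, a second DP partner, fell by 0.44 at 5 µM (adjusted p = 0.0270) and by 0.48 at 10 µM (adjusted p = 0.00564). TFDP3 was near 0 in all libraries and was not tested.

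Counts for the other genes of the pathway come from lists that were written by role, and they stand beside 18.0% of all genes called lower and 16.4% called higher at 10 µM, and 5.81% and 4.40% at 5 µM. Without replicate 1 of 10 µM the shares were 25.8% and 23.0% at 10 µM, and 17.6% and 16.5% at 5 µM. Of 10 genes for the kinases that phosphorylate the pocket proteins, their cyclins and the activating phosphatase CDC25A, 2 were called higher and 3 lower at 10 µM, with a median log2 fold change of -0.09. CCNA2, the S phase and G2 cyclin, fell by 1.23 (edgeR adjusted p = 3.84e-06) and CCNE2, a G1/S cyclin, by 0.71 (0.00348), while CCND3, a G1 cyclin, rose by 0.39 (0.00509). The other called genes of this list, named after their values were seen, were CDK6 (-0.52) and CCND1 (0.31). At 5 µM CCND1 and CCND3 were called higher and CCNA2 lower. Without replicate 1 of 10 µM, 4 were called higher and 3 lower at 5 µM, and 2 higher and 4 lower at 10 µM.

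Of 7 CDK inhibitor genes, 6 were tested, 1 was called higher and 3 lower at each dose. CDKN1A, which encodes p21, stood at 162, 157 and 154 CPM in DMSO, at 537, 549 and 561 CPM at 5 µM and at 900, 726 and 700 CPM at 10 µM. It rose by 1.80 and 2.30 on the log2 scale (edgeR adjusted p = 1.04e-05 and 3.12e-07). CDKN1C, which encodes p57, fell by 2.38 at 10 µM (adjusted p = 3.59e-05) and CDKN2C, an inhibitor of CDK4 and CDK6, by 1.16 (9.54e-05). The third lower gene, named after its value was seen, was CDKN1B at -0.62. Leaving out replicate 1 of 10 µM gave 1 called higher and 4 lower at 5 µM, and 1 higher and 3 lower at 10 µM.

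Of the 6 genes of the MuvB core and B-MYB, which form the DREAM complex with the pocket proteins or the activating B-MYB complex, 1 was called higher and 3 lower at 10 µM (median log2 fold change -0.41). MYBL2, which encodes B-MYB and is itself a known E2F target, stood at 107, 98.4 and 109 CPM in DMSO, 67.9, 75.7 and 68.7 CPM at 5 µM and 58.2, 49.2 and 54.5 CPM at 10 µM. It fell by 0.56 at 5 µM and 0.96 at 10 µM (edgeR adjusted p = 0.00306 and 3.35e-05). RBBP4, a histone-binding subunit, fell by 0.39, whereas LIN37, a MuvB subunit needed for repression, rose by 0.87 (0.00477). LIN9, named after its value was seen, was the third lower gene at -0.58. With replicate 1 of 10 µM left out, 2 were called higher and 3 lower at 10 µM. At 5 µM 0 were called higher and 1 lower with all 9 libraries, and 1 higher and 3 lower without that one.

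Of 14 chromatin partners of RB and E2F, 1 was called higher and 5 lower at 10 µM (median -0.20). RBBP7 fell by 0.51 and the histone methyltransferase gene SUV39H1 by 0.64, while the acetyltransferase gene KAT2A rose by 0.34. Leaving out replicate 1 of 10 µM gave 2 called higher and 7 lower at 10 µM. At 5 µM 1 was called higher and 2 lower with all 9 libraries, and 2 higher and 6 lower without that one. Of 8 genes that govern turnover of E2F and RB proteins, 2 were called higher and 4 lower (median -0.25). MDM2, a ubiquitin ligase gene and p53 target, rose by 2.71 (edgeR adjusted p = 4.81e-08), CCNF fell by 1.24 (2.01e-06) and SKP2 by 0.86 (3.28e-05). The second higher gene, named after its value was seen, was SKP1 at 0.49. The counts at 10 µM were also 2 higher and 4 lower without replicate 1. At 5 µM they were 1 and 3 with all 9 libraries, and 2 and 4 without that one.

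Known targets of the family were counted in the same way. Of 40 E2F targets of the G1/S phase, 23 were called lower and 0 higher at 5 µM, and 34 were called lower and 1 higher at 10 µM, with median log2 fold changes of -0.35 and -0.68. The helicase subunit genes MCM5, MCM2 and MCM6 fell by 1.203, 1.06 and 1.11 at 10 µM (edgeR adjusted p = 2.09e-06, 3.42e-06 and 7.87e-06). The 1 higher gene was PCNA, the sliding clamp of DNA polymerase and also a known p53 target, at 0.43 (0.00618), which was named after its value was seen. TYMS, which makes thymidylate and was likewise named after its value was seen, had a log2 fold change of 0.00 at 10 µM (95% interval -0.19 to 0.20). Between the doses 16 of the 40 were called lower and 0 higher, beside 5.53% and 2.87% of all genes tested. Without replicate 1 of 10 µM the counts between the doses were 32 lower and 0 higher, beside 15.4% and 8.80%.

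Of 30 E2F4 and DREAM targets of the G2/M phase, 20 were called lower at 5 µM and 30 at 10 µM, and 0 were higher at either dose (medians -0.48 and -1.06). TOP2A, the topoisomerase of dividing cells, stood at 501, 518 and 501 CPM in DMSO, 264, 253 and 252 CPM at 5 µM and 125, 150 and 158 CPM at 10 µM, a fall of 1.81 at 10 µM (edgeR adjusted p = 7.41e-07). The spindle gene NUSAP1 fell by 1.38 and the mitotic kinase gene PLK1 by 1.25. Between the doses 24 of the 30 were called lower and 0 higher, beside 5.53% and 2.87% of all genes tested. With replicate 1 of 10 µM left out, the counts between the doses were 29 lower and 0 higher, beside 15.4% and 8.80%. Without replicate 1 of 10 µM, the counts at 10 µM were 37 lower and 1 higher of the 40 G1/S targets and 30 lower of the 30 G2/M targets, and at 5 µM 34 and 29 were lower. CDC20 and CCNF stand on both the turnover list and the G2/M list.

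**Figure D4:**
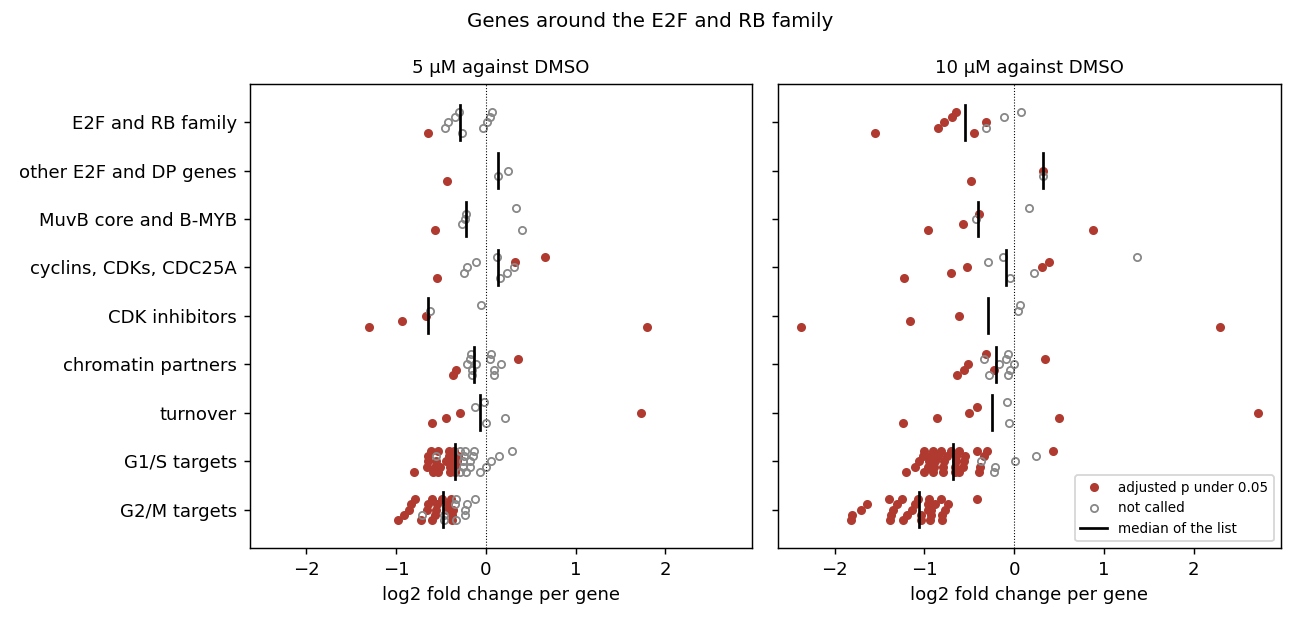
Log2 fold change of each tested gene (points) of the lists around the E2F and RB family at 5 µM and at 10 µM, filled where called, with a bar at each list's median. At 10 µM the G2/M targets have a median of -1.06 and the G1/S targets one of -0.68, and the regulator lists spread to both sides of 0.

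The promoter words were also counted in these lists of known targets. The shares describe the genes chosen for the lists and are not a result of the libraries. An E2F word lay in 20 of the 34 G1/S targets that had a window (58.8%) and in 3 of 24 G2/M targets (12.5%), beside 6.14% of the tested genes. The CHR words TTTGAA and TTCGAA are letters through which the MuvB complexes bind, and were searched on both strands. They lay in 20 of 24 G2/M targets (83.3%) and 3 of 34 G1/S targets (8.82%), beside 16.0% of the tested genes. The E2F and CHR words do not contain one another. Among the members with an E2F word in the windows printed above, E2F1, E2F2, RBL1 and TFDP1 were called lower at 10 µM and E2F3 was not. Of the members whose window held no word, RBL2 was called lower, and E2F4 and RB1 were not. The windows of RBL2 and RB1 do not cover the annotated starts of these genes, so words at those starts were not searched for. E2F5 and E2F8, which had no window, were called lower. A link between the words and the changes of the members was not tested.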

How the data were processed

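RNA of A375 cells was sequenced in 9 libraries. The labels describe selection on oligo-dT beads and the design text removal of ribosomal RNA, which could not be settled. The deposited table holds the expected count of every gene symbol in each library, estimated by the authors with RSEM 1.2.15 and Bowtie2 2.1.0 on hg38 per the submitters' processing notes, and not scaled. The sources used here do not state the annotation, filters or strand setting. Groups follow the labels. Each library's values, of which 10.6% to 13.8% were not whole, were rounded.

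Counts were tested in R 4.3.3 with edgeR 4.0.16: TMM factors, filterByExpr (minimum count 10), 1 quasi-likelihood fit of the 3 groups, and Benjamini-Hochberg adjustment over 16417 genes. The absolute log2 fold change over the root of F gave the standard error, and intervals are at 95%. P-values measure the spread between these libraries. The fit was tested on simulated data. TPM used merged exon lengths of GENCODE release 29, which held 23900 of the 26475 symbols. Promoters came from RefSeq. Python 3.11.15, pandas 2.3.3 and numpy 2.4.6 made the tables. limma 3.58.1 and DESeq2 1.42.0 served as alternatives, as did other filters and scalings, a replicate block, libraries left out and removal of a length and GC trend (splines of 4 degrees of freedom, fitted to the 93.3% of tested genes with both values).

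Named genes were the 10 members, the other E2F and DP genes, the 3 called genes of each list with the smallest p at 10 µM, and CDKN1A and MYBL2. For E2F1, E2F2, E2F8 and RB1, the 5 genes of most similar profile, among genes averaging 10 CPM or more, were also named, except 1 that is not reported here. The members and lists were chosen with earlier results of these data known. The fit without replicate 1 of 10 µM was extended to the lists after seeing the data.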

Additional observations from a re-analysis of the deposited data

How the results depend on the processing

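The 7 members called at 10 µM against DMSO became 4 after removal of the length and GC trend (E2F1, E2F2, RBL1 and RBL2), and leaving out 1 library gave 5 to 7. E2F1, E2F2, RBL1 and RBL2 passed the threshold in 20 of 20 settings there, TFDP1 in 19, E2F8 in 17 and E2F5 in 15. The 1 member called at 5 µM became 2 with DESeq2-type size factors, with DESeq2, with limma-voom and without genes of ribosomal RNA, 0 without a filter, after removal of the length and GC trend and with a replicate block, and 6 in a fit of only the groups compared. Leaving out 1 library gave 0 to 6, the 6 being without replicate 1 of 10 µM. The 2 members called between the doses became 1 at a fold change of at least 1.5, with a replicate block and after removal of the length and GC trend, 0 in a fit of only the groups compared, and 0 to 5 without 1 library. Some of these fits held fewer libraries, and the cause of these shifts was not tested. With the replicate block 7 members were called at 10 µM. Same-numbered libraries of different groups correlated at -0.0493 to 0.0322 in their deviations from the group means. Differently numbered libraries correlated at -0.0327 to 0.0451. These values cannot show whether the cultures were set up in pairs. The activator to repressor ratio became 0.488, 0.398 and 0.324 (DMSO, 5 µM, 10 µM) with the longest annotated transcript, and 0.663 and 0.533 (DMSO, 5 µM) without E2F8, falling with dose each time. Signs turned only in changes that passed no threshold. Removal of the length and GC trend gave E2F3 0.13 at 10 µM and 0.060 between the doses, and, between the doses, E2F5 0.15 and E2F8 -0.060. E2F8 between the doses was -0.0069 without a filter, -0.0036 with limma-voom and -0.00084 with the block. Leaving out 1 library gave ranges across 0 for E2F3 (-0.0071 to 0.081 at 5 µM, -0.22 to 0.0092 at 10 µM), for RB1 (-0.014 to 0.043 at 5 µM) and, between the doses, for E2F4 (-0.061 to 0.059), E2F5 (-0.20 to 0.013) and E2F8 (-0.14 to 0.090). The low counts of E2F2 and E2F8, 94 to 421 and 169 to 295 per library, limit their precision.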

Other observations

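Genes whose profile over the 9 libraries was most like that of a member were named by a fixed measure, the root mean square difference of log2 CPM after each gene was set to 0 at its own DMSO mean. Nearest to E2F1 was DUT, the dUTP pyrophosphatase gene, at 0.0655, followed by LPCAT4, GNAS, CTSZ and FSCN1 (up to 0.0818). DUT stood at 122, 122 and 117 CPM in DMSO, 83.4, 84.6 and 84.8 CPM at 5 µM and 83.6, 61.8 and 63.4 CPM at 10 µM, with replicate 1 of 10 µM above the other 10 µM libraries as for E2F1. DUT is on the list of G1/S targets.

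Nearest to E2F2 were IQGAP3, THSD4, LAMA5 and TNFRSF19, at 0.150 to 0.176, and nearest to E2F8 were CCBE1, MZT1, ZNF512, FHL3 and IRAK2, at 0.113 to 0.139. Nearest to RB1 were ANKFY1, VPRBP, TTC37, SETD7 and WNK1, at 0.0492 to 0.0557, and none of these has a log2 fold change at 10 µM outside -0.35 to -0.25. The likeness is a description over 9 libraries that share groups, and includes replicate 1 of 10 µM.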
